A study of Mus musculus with 2 samples.

Results

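Lypd2, Enpp2, Npr3, Kcne2, Pcp2, Lmo1, Pde1a and Phactr3 are 8 of the 31053 genes counted in single cells of newborn mouse eye cups. They were chosen by their UMI ratio in the retinal pigment epithelium (RPE), where they stood higher in a mutant with Myrf, a membrane-bound transcription factor, deleted in the eye. Each symbol matched 1 row of the gene list, so all 8 genes could be followed in both libraries. Their RPE ratios below are therefore a description and were not tested.

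The eye cups came from pups at postnatal day 0, after removal of the cornea, lens and optic nerve. The control library was made from 3 pooled Myrf fl/fl eye cups and the mutant library from 3 pooled Rx>cre Myrf fl/fl eye cups. Both genotypes thus carry the floxed Myrf alleles, and the mutants differ by the Rx>cre transgene, which drives cre recombinase in the early eye field that forms both the RPE and the neural retina. With 1 library per genotype, the differences have no replicate check, and genotype and library cannot be told apart. Intervals below are 95% intervals that cover counting error only, not differences between animals.

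The RPE is a pigmented monolayer between the photoreceptors and the choroid that recycles retinoids, moves ions and fluid, and supports the photoreceptors. Several genes of the set act at the cell surface or outside the cell. Enpp2 encodes autotaxin, the secreted enzyme that makes lysophosphatidic acid, and Npr3 encodes the clearance receptor for natriuretic peptides. Lypd2 encodes a small membrane-anchored protein of the Ly6 family, and Kcne2 encodes an accessory subunit of voltage-gated potassium channels. The others act inside the cell. Pde1a encodes a calmodulin-dependent phosphodiesterase of cyclic nucleotides, Pcp2 a modulator of inhibitory G proteins named after Purkinje cells, Lmo1 a LIM-only cofactor of transcription, and Phactr3 a protein that binds actin and protein phosphatase 1.

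On GRCm38, 3 of the genes lie on chromosome 15, namely Npr3 (11839896 to 11907287), Enpp2 (54838901 to 54952892) and Lypd2 (74732247 to 74734329). A further 2 lie on chromosome 2, Pde1a (79834453 to 80129458) and Phactr3 (178118975 to 178338492). Lmo1 is on chromosome 7 (109138572 to 109175207), Pcp2 on chromosome 8 (3623371 to 3625545) and Kcne2 on chromosome 16 (92292389 to 92298129). Kcne2 and Phactr3 are on the plus strand and the other genes on the minus strand, and no annotated gene overlaps any of them on the same strand.

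The promoters are shown so that the sequences of genes higher in the same mutant cell class can be set side by side. RefSeq promoter sequences (GRCm38.p6) were at hand for 5 of the 8 genes, and the start site nearest the annotated gene start was used. The 250 bases before that site were searched on both strands for CTGGCAC and CTGGTAC (MYRF), CACGTG and CATGTG (E-boxes bound by MITF), TAATCC (OTX factors) and GGAATG (TEAD factors), which do not overlap one another in these windows. Capitals below mark matches and all runs read 5′ to 3′. They are Kcne2 (chr16:92292139-92292388, plus strand), Pcp2 (chr8:3625548-3625797, minus strand), Lmo1 (chr7:109175208-109175457, minus strand) and Pde1a (chr2:80129459-80129662, minus strand, 204 bases, ending where the annotated gene begins).
Kcne2: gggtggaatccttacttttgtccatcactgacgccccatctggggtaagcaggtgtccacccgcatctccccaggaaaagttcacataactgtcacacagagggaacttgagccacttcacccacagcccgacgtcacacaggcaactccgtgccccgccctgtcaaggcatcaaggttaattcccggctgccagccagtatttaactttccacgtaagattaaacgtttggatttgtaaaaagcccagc
Pcp2: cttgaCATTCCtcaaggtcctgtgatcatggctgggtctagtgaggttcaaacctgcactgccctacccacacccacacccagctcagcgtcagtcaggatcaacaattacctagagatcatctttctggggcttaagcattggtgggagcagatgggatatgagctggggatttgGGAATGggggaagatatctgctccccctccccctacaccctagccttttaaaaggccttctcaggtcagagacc
Lmo1: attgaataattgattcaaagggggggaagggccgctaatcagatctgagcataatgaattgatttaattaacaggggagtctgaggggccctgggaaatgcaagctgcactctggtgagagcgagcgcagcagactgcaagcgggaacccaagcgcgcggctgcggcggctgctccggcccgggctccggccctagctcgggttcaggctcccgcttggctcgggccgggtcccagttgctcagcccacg
Pde1a: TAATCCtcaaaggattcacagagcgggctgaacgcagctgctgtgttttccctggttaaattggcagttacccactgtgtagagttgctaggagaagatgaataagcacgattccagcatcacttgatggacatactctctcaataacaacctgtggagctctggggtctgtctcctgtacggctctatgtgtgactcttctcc

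None of the 5 windows held a MYRF match, against 5.93% of the 32851 promoters in the table, and none held an E-box, against 17.6%. The TEAD letters occurred 2 times in the Pcp2 window and in no other of the 5, against 12.6% of all promoters. The OTX letters occurred once, at the far end of the Pde1a window, against 6.25% of all promoters. The windows were also unlike in base composition, from 38.8% G and C in Npr3, which is not printed because much of it is a simple repeat, to 61.2% in Lmo1, around a median of 52.4% over all promoters. A match is a description of letters and not a binding site, and a missing match says only that these letters are not in the window.

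The control matrix held 79017429 unique molecular identifiers (UMIs, each marking 1 captured transcript) over 14305 barcodes, and the mutant matrix 76272867 UMIs over 12222 barcodes. After removal of poor barcodes and called doublets, 12449 control and 10797 mutant cells were clustered, and cluster names were rebuilt from marker genes. Unnamed clusters held 19.6% of control and 23.4% of mutant cells, among them 30 and 18 cells with melanocyte markers, so statements on classes below do not cover these. A single cluster, of 486 control and 192 mutant cells, was RPE-like, with 8 of 10 RPE markers counted for it. Of the markers, Rpe65 was all but absent, with 12 and 0 UMIs. The median depth of RPE-like cells differed widely, 2538 UMIs for control and 10508.5 UMIs for mutant cells, so per-cell shares below were taken after each cell was thinned to the same depth. Myrf itself had 745 control and 61 mutant UMIs in RPE-like cells, which is 231 and 27.0 UMIs per 1000000.

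Each of the 8 genes was more abundant in mutant than in control RPE-like cells, by 3.96-fold to 8.08-fold as a plain ratio of levels. Genes at the cell surface or outside the cell are given first. Lypd2 had 43 control and 244 mutant UMIs, or 13.3 and 108 CPM (UMIs of the gene per 1000000 UMIs of the class), a log2 ratio of 2.92 (interval from 2.54 to 3.52) with 1 CPM added to each side. Enpp2 had 126 and 652 UMIs, 39.1 and 288 CPM, a log2 ratio of 2.85 (2.60 to 3.17). Npr3 had 88 and 385 UMIs, 27.3 and 170 CPM, a log2 ratio of 2.60 (2.30 to 2.99). Kcne2, with the fewest UMIs of the set, had 26 and 114 UMIs, 8.07 and 50.4 CPM, a log2 ratio of 2.50 (2.02 to 3.32). In each of these genes the interval of the mutant level lay above that of the control level, while the intervals of the ratios of Kcne2 and of the genes below overlapped.

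Among the genes that act inside the cell, the cofactor Lmo1 had the most UMIs in both libraries. It had 309 control and 1049 mutant UMIs, 95.9 and 464 CPM, a log2 ratio of 2.26 (2.09 to 2.46). Pcp2 had 59 and 223 UMIs, 18.3 and 98.6 CPM, a log2 ratio of 2.37 (2.01 to 2.87). Pde1a had 84 and 272 UMIs, 26.1 and 120 CPM, a log2 ratio of 2.16 (1.85 to 2.58). Phactr3 had 60 and 167 UMIs, 18.6 and 73.8 CPM, and the smallest log2 ratio, 1.93 (1.55 to 2.44). The median over the 8 genes was 2.43, beside -0.01 over the 11030 genes measured in the class (at least 20 UMIs). All 8 genes lay past a 2-fold difference upward, as did 2.62% of all genes measured, a count that the choice of genes fixed.

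**Figure D1:**
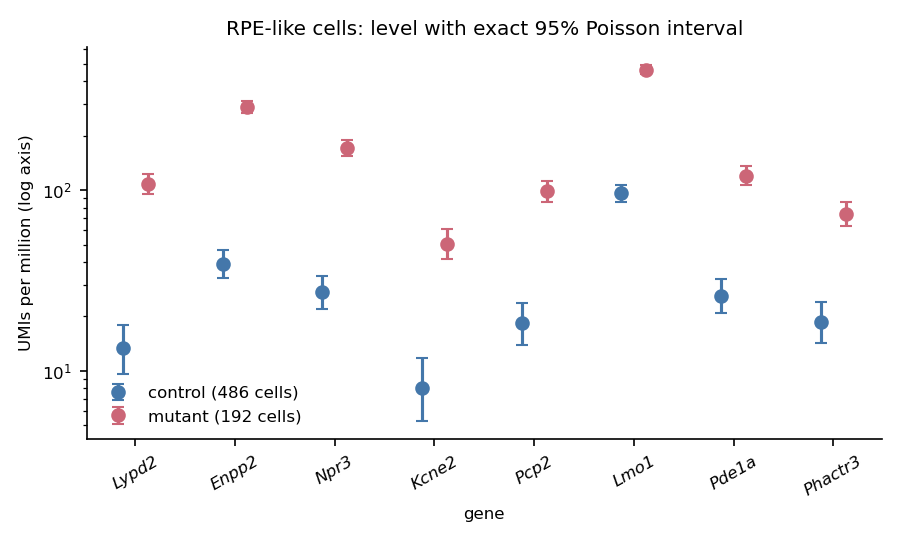
UMIs per 1000000 (log axis) of the 8 genes in RPE-like cells of the control (486 cells, blue) and mutant (192 cells, red) library, with points at the level and bars at the exact Poisson interval. In every gene the mutant interval lies above the control interval, from Kcne2 (8.07 and 50.4) to Lmo1 (95.9 and 464).

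Ranked by this ratio among genes with at least 100 UMIs in RPE-like cells, Tpm2, Igf2 and Slc16a12 stood among the first 10 without belonging to the set. Tpm2, a tropomyosin, had 48 and 182 UMIs (log2 ratio 2.36), the growth factor gene Igf2 47 and 171 (2.30), and the monocarboxylate transporter gene Slc16a12 31 and 107 (2.18). At the lower edge of the set, Anxa1 (1.96), which is no member, stood just above Phactr3 (1.93), and Podn (1.89), also no member, just below it. Over all 11030 genes measured, including those with fewer UMIs, Lypd2 stood at place 11, Enpp2 at 13, Npr3 at 15, Kcne2 at 18, Pcp2 at 22, Lmo1 at 29, Pde1a at 33 and Phactr3 at 49.

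In the control, the 8 genes did not share 1 home tissue. Kcne2 was the only one nearly confined to the RPE, which held 81.25% of its UMIs over all kept control cells and 87.7% in the mutant. Its control level of 8.07 CPM (5.27 to 11.8) was followed by 0.605 (0.165 to 1.55) in photoreceptor-like cells. It had 1 UMI each in pericyte-like and mesenchyme-like cells and 0 UMIs in the 10 other named classes of at least 20 cells per library. Pde1a and Phactr3 were also highest in the RPE, with lower levels in other classes. Pde1a stood at 26.1 CPM (20.8 to 32.3) in RPE-like cells and 10.4 (8.76 to 12.2) in mesenchyme-like cells. Phactr3 stood at 18.6 (14.2 to 24.0) in RPE-like cells and 5.92 (3.75 to 8.88) in amacrine-like cells.

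The genes Lypd2 and Npr3 were highest in the keratin-expressing surface epithelium of the control. Lypd2 reached 354 CPM (321 to 390) in surface epithelium-like cells, far above the 13.3 (9.66 to 17.98) of RPE-like cells, which overlapped the 7.33 (5.10 to 10.2) of pericyte-like cells. In the mutant, RPE-like cells came closer, with 108 CPM (94.7 to 122) against 180 (153 to 211) in surface epithelium-like cells. Npr3 stood at 96.2 (79.1 to 116) in surface epithelium-like cells, while RPE-like (27.3), pericyte-like (26.2) and endothelial-like cells (24.3) did not differ beyond their intervals. In the mutant the order turned, with 170 CPM (154 to 188) in RPE-like cells and 72.6 (55.9 to 92.7) in surface epithelium-like cells.

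The remaining genes were shared with the mesenchyme or with photoreceptors. In the control, Enpp2 was at 39.5 CPM (36.2 to 42.9) in mesenchyme-like cells and at 39.1 (32.6 to 46.6) in RPE-like cells, with overlapping intervals, and the 22.8 (13.7 to 35.5) of muscle-like cells overlapped that of RPE-like cells. Among thinned control RPE-like cells, the 24 with Enpp2 held 29.25 UMIs of the mesenchyme list on average and those without it 3.95, against 1.42 and 1.83 in the mutant, and the part of these transcripts in the Enpp2 level was not tested. In the mutant, RPE-like cells stood alone at 288 (267 to 311), with mesenchyme-like cells at 62.3 (57.1 to 67.8). Pcp2 was highest in photoreceptor-like cells of the control, at 38.7 (34.1 to 43.8), above the 18.3 (13.9 to 23.6) of RPE-like cells, and the order was turned in the mutant (37.7 and 98.6). Lmo1 was at 113 (105 to 121) in control photoreceptor-like cells and at 95.9 (85.5 to 107) in RPE-like cells, with overlapping intervals, and next at 28.8 (23.7 to 34.7) in amacrine-like cells. In the mutant, Lmo1 was at 464 (436 to 493) in RPE-like cells and at 90.6 (84.0 to 97.6) in photoreceptor-like cells.

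**Figure D2:**
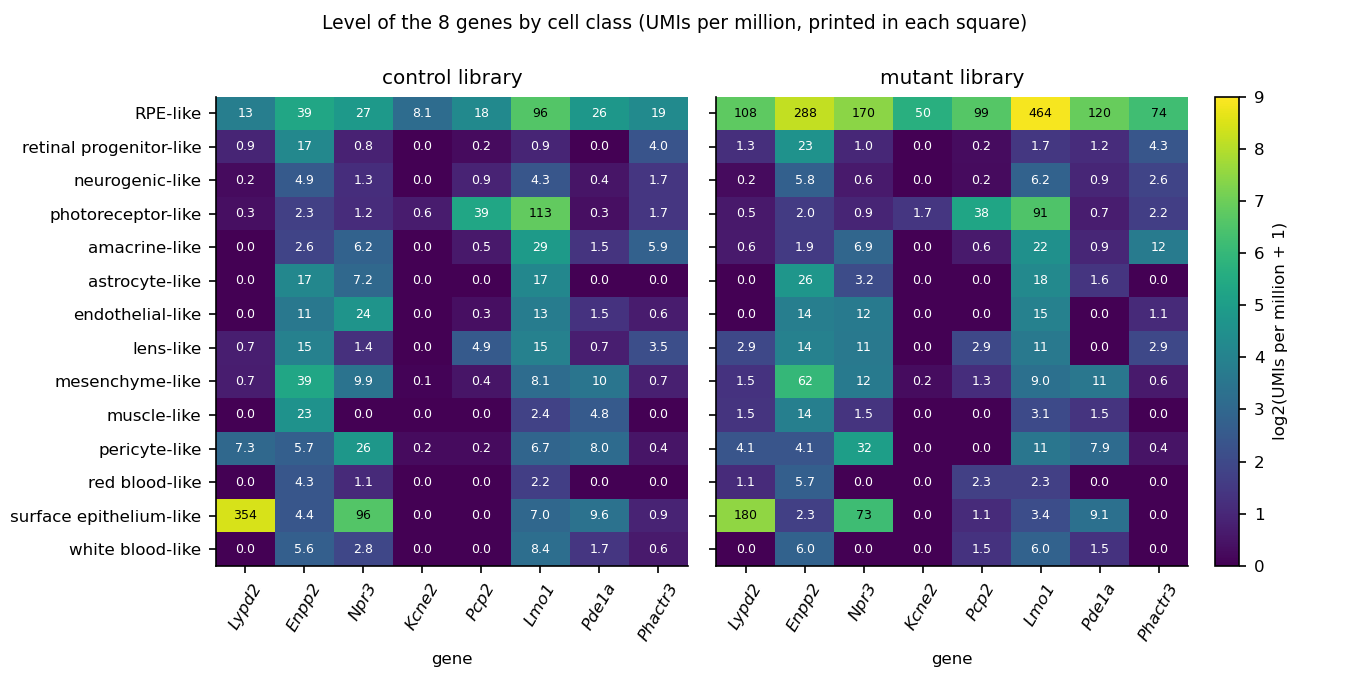
Level of each gene (columns) in each cell class of at least 20 cells per library (rows), for the control (left) and the mutant (right), printed in UMIs per 1000000 (CPM) and coloured as log2(CPM + 1). Mutant cells of the lens-like row held almost no lens transcripts. The RPE-like row is brighter in the mutant for all 8 genes, while the highest control square of Lypd2 and Npr3 lies in surface epithelium-like cells (354 and 96.2) and that of Pcp2 and Lmo1 in photoreceptor-like cells (38.7 and 113).

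The share of each gene's UMIs that came from RPE-like cells was larger in the mutant. These cells were 3.90% of control and 1.78% of mutant cells, but deeper in the mutant, with 3221875 and 2262299 UMIs in the class. The shares also depend on UMIs in other cells. These numbered 471 (control) and 219 (mutant) for Lypd2 and, in the other direction, 1184 and 1326 for Enpp2. The share went from 8.37% to 52.7% for Lypd2, from 9.62% to 33.0% for Enpp2, and from 14.4% to 52.4% for Npr3. For Pcp2 it went from 17.3% to 40.9%, for Lmo1 from 21.1% to 49.98%, for Pde1a from 27.0% to 61.3% and for Phactr3 from 29.4% to 44.2%.

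Outside the RPE, none of the members measured passed a 2-fold difference in either direction, with 1 CPM added to each side as in the counts over all genes, in any of the 7 classes besides it that were compared. These held 100 or more cells in each library. Lens-like cells, where 3.75% of all genes measured were at least 2-fold higher and 5.99% at least 2-fold lower, were left out, because the lens list summed to 12015 CPM in control and 14.3 CPM in mutant cells of that class. As plain ratios, without the added CPM, 3 values passed it, namely Phactr3 in amacrine-like cells (2.08-fold higher), Npr3 in endothelial-like cells (2.04-fold lower) and Lypd2 in mesenchyme-like cells (2.30-fold higher, from 9 and 13 UMIs, with an interval that included no difference). Over all genes measured, 0.217% were at least 2-fold higher and 0.851% at least 2-fold lower in retinal progenitor-like cells, where 5 members were measured. The same shares were 0.397% and 0.991% in neurogenic-like cells (3 members), 0.257% and 1.27% in photoreceptor-like cells (4 members) and 0.709% and 1.14% in amacrine-like cells (4 members). They were 0.643% and 3.21% in endothelial-like cells (3 members), 0.149% and 0.877% in mesenchyme-like cells (5 members), and 0.816% and 1.17% in pericyte-like cells (5 members). The median of the measured members ran from -0.09 in photoreceptor-like and amacrine-like cells to 0.41 in neurogenic-like cells.

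Of the members under 20 UMIs, which that count leaves out, Pde1a had 0 UMIs in 2011 control and 16 UMIs in 2578 mutant progenitor-like cells, a level of 1.22 CPM in the mutant (0.696 to 1.98), above the 0.302 that 3 counts would give in the control. With called doublets kept, the control level was 0.422 CPM, from 6 UMIs.

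Measured members also differed in some of these classes beyond their intervals. Enpp2 was higher in mutant mesenchyme-like cells, with 543 and 538 UMIs in smaller mutant totals (log2 ratio 0.64, from 0.48 to 0.83). This class joined 6 clusters in a different mix, 1 of them with 612 control and 27 mutant cells. Enpp2 was also higher in mutant retinal progenitor-like cells, with 171 and 301 UMIs (0.39, from 0.13 to 0.69). Phactr3 was higher in mutant amacrine-like cells, with 23 and 66 UMIs (0.94, from 0.35 to 1.81). In the opposite direction, Lmo1 was lower in mutant photoreceptor-like cells, with 747 and 694 UMIs (-0.32, from -0.47 to -0.17), and in amacrine-like cells, with 112 and 116 UMIs (-0.40, from -0.80 to -0.03). Npr3 was lower in mutant endothelial-like cells, with 82 and 22 UMIs (-0.97, from -1.78 to -0.33). A finer clustering held endothelial-like clusters of 222 control and 139 mutant cells and of 212 and 26, so the mix differed here too. In surface epithelium-like cells, which numbered 125 and 70 and joined 1 cluster of 92 and 39 cells with 1 of 33 and 31, Lypd2 was lower in the mutant, with 405 and 159 UMIs (-0.97, from -1.25 to -0.71), and the interval of Npr3 included 0 (-0.40, from -0.87 to 0.05). Pcp2 did not differ beyond its interval in photoreceptor-like cells, with 256 and 289 UMIs (-0.04, from -0.29 to 0.21).

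The spread of the difference over cells was examined next. Each RPE-like cell of at least 5000 UMIs was thinned to that number, which left 184 control and 124 mutant cells and left out 302 and 68 shallower ones. Of the mutant cells, 117 of 124 (94.4%, from 88.7% to 97.7%) held at least 1 of the 8 genes, against 108 of 184 control cells (58.7%, from 51.2% to 65.9%). At least 3 of the genes were held by 87 mutant cells (70.2%, from 61.3% to 78.0%) and 8 control cells (4.35%, from 1.90% to 8.39%). The median cell held 3 of the genes in the mutant and 1 in the control, no mutant cell held more than 6, and 7 mutant cells held none. Thinning to 1000 UMIs, which kept 386 control and 167 mutant cells, left at least 1 gene in 55.7% of mutant and 18.7% of control cells.

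**Figure D3:**
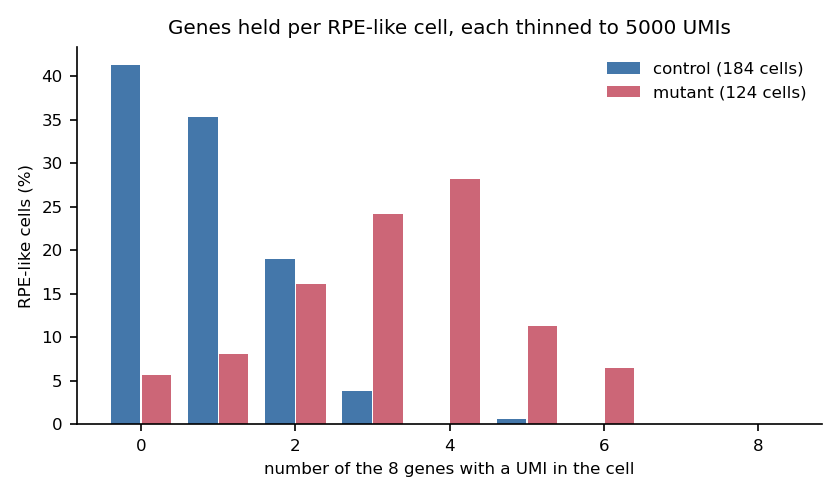
Share of RPE-like cells (%) by the number of the 8 genes with a UMI, after thinning to 5000 UMIs, for 184 control (blue) and 124 mutant (red) cells. Control cells pile up at 0 and 1 gene (41.3% and 35.3%) and mutant cells at 3 and 4 (24.2% and 28.2%).

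Lmo1 and Enpp2 were spread over most mutant RPE-like cells. A Lmo1 UMI was found in 103 of 124 mutant cells (83.1%, from 75.3% to 89.2%) and 59 of 184 control cells (32.1%, from 25.4% to 39.3%), and 28 mutant cells held 4 or more. Enpp2 was found in 77 mutant cells (62.1%, from 52.9% to 70.7%) and 24 control cells (13.0%, from 8.54% to 18.8%). As background, 0.702% of mutant retinal progenitor-like cells held Lmo1 at the same depth, and 8.69% held Enpp2, which stood at 22.9 CPM in that class. In photoreceptor-like cells, where Lmo1 was also high, the share with Lmo1 was 27.8% for control and 19.9% for mutant cells. Median depths before thinning were 10508.5 UMIs in mutant RPE-like and 4780 UMIs in mutant progenitor-like cells, and without thinning 76.6% of mutant and 32.7% of control RPE-like cells held Lmo1.

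Npr3, Pde1a, Phactr3 and Kcne2 were found in fewer mutant cells than Lmo1 and Enpp2. Npr3 was found in 54 mutant cells (43.5%, from 34.7% to 52.7%) and 15 control cells (8.15%, from 4.63% to 13.1%), against 0.263% of mutant progenitor-like cells. Pde1a was found in 44 mutant cells (35.5%, from 27.1% to 44.6%) and 18 control cells (9.78%, from 5.90% to 15.02%), against 0.439% of mutant progenitor-like cells. No mutant cell held more than 3 Pde1a UMIs. Phactr3 was found in 34 mutant cells (27.4%, from 19.8% to 36.2%) and 12 control cells (6.52%, from 3.42% to 11.1%), against 2.02% of mutant progenitor-like cells. Kcne2 was found in 27 mutant cells (21.8%, from 14.9% to 30.1%) and 8 control cells (4.35%, from 1.90% to 8.39%). Among mutant progenitor-like cells it was found in 0 of 1139, with an interval up to 0.323%.

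Lypd2 and Pcp2 were also found in a minority of mutant cells, with more of their UMIs in the richest cells. Lypd2 was found in 30 mutant cells (24.2%, from 17.0% to 32.7%) and 9 control cells (4.89%, from 2.26% to 9.08%), against 0.439% of mutant progenitor-like cells. Pcp2 was found in 29 mutant cells (23.4%, from 16.3% to 31.8%) and 16 control cells (8.70%, from 5.05% to 13.7%), against 0.0878% of mutant progenitor-like and 10.8% of mutant photoreceptor-like cells. The 13 mutant cells richest in Lypd2 held 70.8% of its UMIs, and the 13 richest in Pcp2 held 75.8%, with up to 14 UMIs in 1 cell. The corresponding share was 32.2% for Lmo1, 40.4% for Enpp2, 46.8% for Pde1a, 48.4% for Npr3, 48.8% for Phactr3 and 53.3% for Kcne2. The Fano factor, the variance of the UMIs per cell over their mean, was 4.95 for Pcp2 and 2.75 for Lypd2 in the mutant, beside a median of 1.06 over genes of like mean for each. It was 2.54 for Enpp2, 2.07 for Lmo1 and 1.98 for Npr3, beside 1.16, 1.28 and 1.09. It was 1.18 for Pde1a, beside 1.06, and 0.958 for Kcne2 and 1.06 for Phactr3, beside 1.03 and 1.04. Pcp2 and Lypd2 thus differed from cell to cell more than genes of like mean, Enpp2, Lmo1 and Npr3 less so, and Pde1a, Kcne2 and Phactr3 lay below the 90th percentile of like genes. In the control, the Fano factor of Lypd2 was 3.05, from 15 UMIs of which 1 cell held 6, and that of Npr3 was 1.92. It was 1.54 for Lmo1, 1.40 for Pde1a, 1.35 for Enpp2 and 1.21 for Pcp2, of which the first 3 lay above the 90th percentile of like genes.

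**Figure D4:**
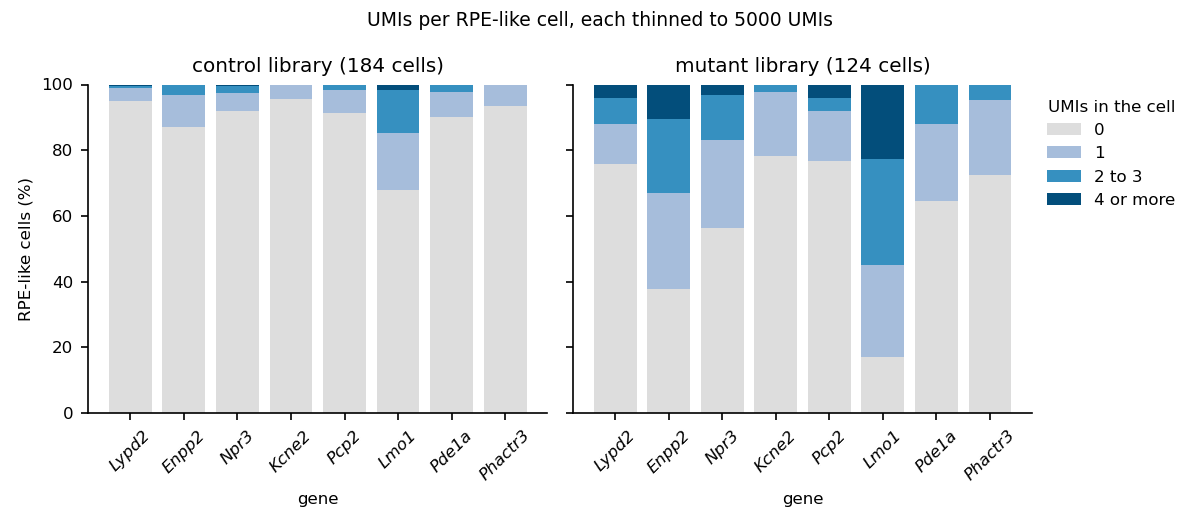
Share of RPE-like cells (%) with 0, 1, 2 to 3, or 4 or more UMIs of each gene after thinning to 5000 UMIs, for the control (184 cells, left) and the mutant (124 cells, right). Coloured parts of the bars are taller in the mutant for all 8 genes, from 21.8% of cells for Kcne2 to 83.1% for Lmo1.

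Pairs of the genes were mostly weakly correlated over mutant RPE cells, and in counts this sparse a weak correlation says little. Over the 124 thinned mutant cells, which share library and depth, the 28 pairs of genes had Pearson correlations from -0.17 to 0.58, with a median of 0.06. The exception was Enpp2 with Npr3, at 0.58, although the 35 cells that held both were near the 33.5 expected if the genes were unrelated. The next pair, Lypd2 with Enpp2, was at 0.22. The lowest was Kcne2 with Lmo1, at -0.17. In the control, the pairs ran from -0.09 to 0.19.

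RPE-like cells thinned to 5000 UMIs fell into 3 sub-clusters when clustered without the 8 genes. The largest held 124 control and 84 mutant cells (67.4% and 67.7%) and led with genes that included Rgr, Gsta1 and Bmp6. Rgr, a retinal opsin of the RPE, had 3240 control and 12 mutant UMIs in it. Of 9 listed markers of the choroid plexus, an epithelium that also makes Kcne2, 4 were counted for it (Clic6, Kcnj13, Sostdc1 and Cldn2), genes that the RPE expresses too, and it was left unnamed. A ciliary margin-like sub-cluster of 38 control and 24 mutant cells (20.7% and 19.4%) led with Crhbp, Optc, Pcp4, Wfdc1 and Zic1 and had 4 of 7 listed markers of the ciliary margin counted. The smallest held 22 control and 16 mutant cells (12.0% and 12.9%) and led with Hes5, Crym and Rad51ap1, and it too was left unnamed.

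In the largest sub-cluster each of the 8 genes was higher in the mutant, with log2 ratios from 1.65 for Phactr3 to 4.18 for Lypd2. Lypd2 had 10 control and 176 mutant UMIs there, or 4.92 and 106 CPM. Enpp2 (2.97, from 2.67 to 3.34), Npr3 (2.88, from 2.50 to 3.38), Pcp2 (2.57, from 2.14 to 3.15) and Lmo1 (2.45, from 2.23 to 2.71) followed.

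The ciliary margin-like cells differed from this in both libraries. Kcne2 had 103 UMIs in the largest sub-cluster of the mutant (62.1 CPM) and 0 in ciliary margin-like cells, which allows up to 9.69 CPM (3 counts). Against that limit its level was at least 6.40-fold higher in the largest sub-cluster, while the 95% interval of the log2 ratio of ciliary margin-like over largest, which is wider, ended at -2.35. Pcp2 had 207 UMIs (125 CPM) and 0, at least 12.9-fold higher by the same limit, with an interval that ended at -3.37. Phactr3 had 139 UMIs and 3 UMIs, 83.8 and 9.69 CPM, a log2 ratio of -2.99 (from -5.41 to -1.53) of ciliary margin-like over largest. In the control, Phactr3 showed the same order, with 53 UMIs and 1 UMI. Kcne2 had 24 UMIs and 1 UMI and Pcp2 had 41 UMIs and 5 UMIs in control cells, with intervals of the ratio that included 0. Kcne2 and Phactr3 were thus scarcely counted in ciliary margin-like cells of either genotype.

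Lypd2 had the opposite order of levels in the control, with 61.7 CPM (41.3 to 88.6) in ciliary margin-like cells and 4.92 (2.36 to 9.04) in the largest sub-cluster. In the mutant its levels there were 165 (123 to 217) and 106 (91.0 to 123). The control levels rest on 29 and 10 UMIs. With a Fano factor of 3.05 in control RPE-like cells, these Poisson intervals are too narrow for Lypd2. After thinning, 4 of 38 and 5 of 124 control cells held it, with overlapping intervals (2.94% to 24.8% and 1.32% to 9.16%). In the mutant, 6 of 24 and 20 of 84 cells held it. The markers that named the ciliary margin-like cells were themselves lower in the mutant, with 360 and 35.5 CPM for Wfdc1, 157 and 32.3 for Zic1 and 74.5 and 16.2 for Msx1, while Otx1 was at 53.2 and 48.5. Lmo1, Enpp2 and Npr3 were higher in mutant ciliary margin-like cells as well, with log2 ratios of 1.88 (1.38 to 2.43), 2.08 (1.31 to 2.97) and 1.74 (0.90 to 2.68). For Pde1a, with 18 and 22 UMIs there, the interval included 0 (0.88, from -0.07 to 1.88). In the smallest sub-cluster Lmo1 had 25 control and 94 mutant UMIs (2.29, from 1.65 to 2.99), Phactr3 1 and 21, and Pcp2 8 and 6 (-0.03, from -1.84 to 1.69).

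**Figure D5:**
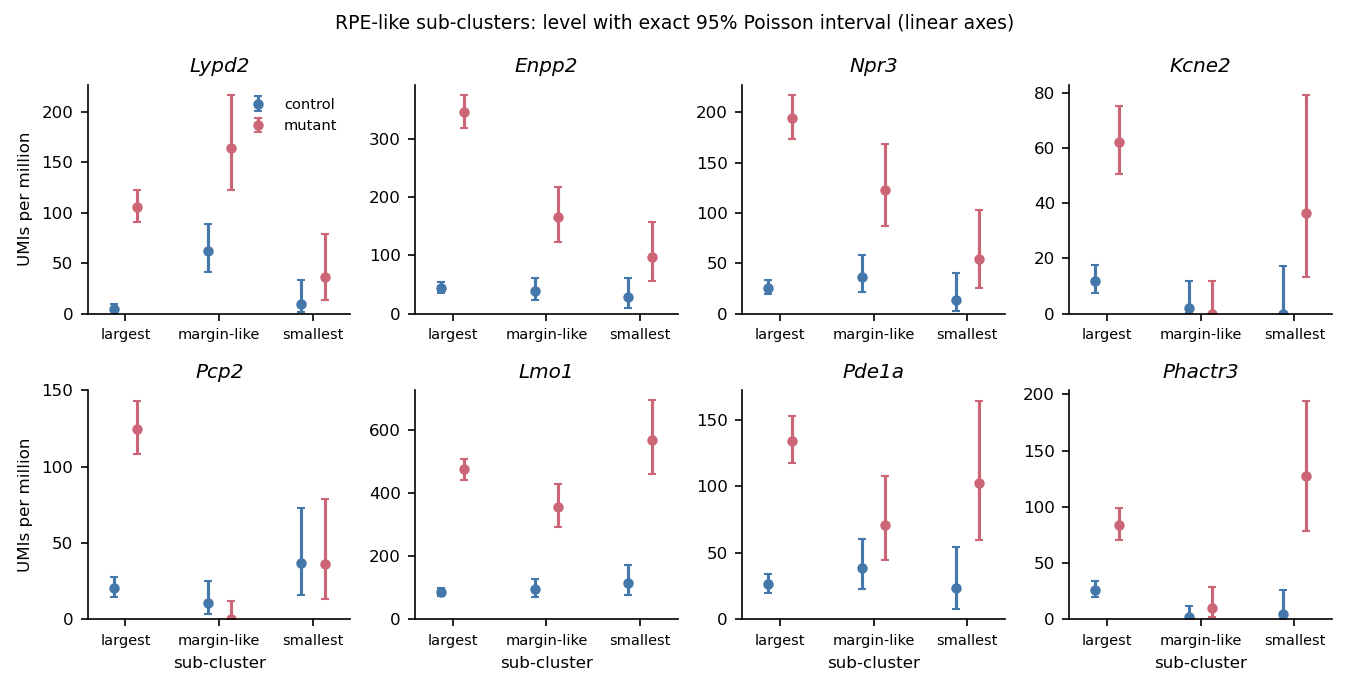
UMIs per 1000000 (linear axis, own scale per gene) of the 8 genes in the 3 sub-clusters of RPE-like cells, control in blue and mutant in red, with exact Poisson intervals. Mutant points stand above control points in the largest sub-cluster for all 8 genes, and Kcne2 and Pcp2 lie at 0 in mutant ciliary margin-like cells.

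The ciliary margin list was followed in RPE-like cells as a whole, since it marks cells among them. Of its 7 genes, 2 were higher in the mutant, with a summed level of 943 and 1016 CPM. Wfdc1 had 184 control and 19 mutant UMIs, Zic1 84 and 15, and Msx1 35 and 5, while Gja1, a connexin gene that the RPE expresses too, had 1665 and 1820. The shares of cells in the ciliary margin-like sub-cluster were 20.7% and 19.4%.

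Transcripts of the classes that share these genes were also counted in RPE-like cells. The surface epithelium list, of the class highest in Lypd2 and Npr3, summed to 331 CPM in control and 520 in mutant cells, against 22680 and 26616 in its own class, with 4 of 6 genes higher. Most of it was Krt8 and Perp, which had 989 and 172 UMIs in the mutant, while Krt5, Krt14 and Epcam had 1, 2 and 3. The photoreceptor list summed to 794 and 655 CPM, of which the RPE factor Otx2 alone made 682 and 549.9, and Rcvrn had 1 UMI in each library. The mesenchyme list summed to 2428 CPM in control and 309 in mutant cells, with all 10 genes lower in the mutant. The pericyte list, of a class that overlapped RPE-like cells in control Npr3 and Lypd2, summed to 266 and 348 CPM, with 4 of 7 genes higher, among them Myh11 with 27 and 70 UMIs, while Rgs5 was at 0 in the mutant. The choroid plexus list summed to 1456 and 1772 CPM, with 6 of 9 genes higher, among them Folr1 with 444 and 896 UMIs. Of these 6, Kl (1 and 2 UMIs), Prlr (5 and 8) and Aqp1 (41 and 37) had intervals of the ratio that included 0. Clic6 (1070 and 530 UMIs), Kcnj13 (323 and 133) and Cldn2 (151 and 52), all counted for the largest sub-cluster, were lower in the mutant. The melanocyte marker Pax3 was at 0 UMIs in RPE-like cells of both libraries. The part of the listed transcripts in the ratios of the 8 genes was not tested.

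The difference was also looked for within bands of depth, within the sexes and beside Myrf itself. Within the bands over 2000 UMIs, mutant cells were still deeper on average. Among cells over 8000 UMIs, 151 control and 109 mutant cells, the log2 ratios ran from 1.89 for Phactr3 to 2.80 for Enpp2. Among cells of 2000 to 8000 UMIs (127 and 40 cells), all 8 ratios were above 0, from 1.35 for Phactr3 to 3.70 for Lypd2, and the intervals of Kcne2, Pcp2 and Phactr3 included 0. Below 2000 UMIs (208 and 43 cells) Lypd2 had no UMI in either library and the others had 2 to 27 UMIs per library except Kcne2, with 1 and 2.

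Both libraries held cells of both sexes, and RPE-like cells were split by their sex-linked transcripts. Cells with only Y-linked UMIs numbered 128 (control) and 34 (mutant), and those with only Xist numbered 80 and 75. All 8 genes were at least 2-fold higher in the mutant within each set, a count that the choice of genes largely fixed. Sets and depth bands alike are parts of the cells on which the genes were chosen. Lypd2 was at 8.55 and 140 CPM in the first set and at 20.02 and 105 in the second. Kcne2 was at 4.27 and 49.5 in the first and at 17.8 and 48.8 in the second, so its log2 ratio was 3.26 (2.20 to 5.12) and 1.41 (0.65 to 2.34).

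Some mutant RPE-like cells still held a Myrf UMI, and the genes were high there too. After thinning, 18 of 124 mutant cells held one. Lmo1 was at 467 CPM (336 to 631) in these and at 472 (415 to 534) in the other 106. Lypd2 was at 77.8 (31.3 to 160) and 109 (83.1 to 141), and Pcp2 at 100 (45.7 to 190) and 108 (81.5 to 139). Kcne2, Pde1a and Phactr3 were higher in the cells with a Myrf UMI, with overlapping intervals. Enpp2 was at 478 (346 to 644) and 242 (201 to 287), and Npr3 at 244 (153 to 370) and 138 (108 to 173), with intervals that did not overlap for Enpp2 alone. These are Poisson intervals, and Enpp2 had a Fano factor of 2.54 in mutant cells, so they are too narrow for it. The difference was not tested. UMIs are counted at transcript ends and do not show whether a cell had recombined its Myrf alleles.

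Relatives and partners of the 8 genes were taken from 8 lists with 74 genes in all, of which 43 were measured in RPE-like cells. Of these, 6 were at least 2-fold higher (2.62% of all genes measured) and 4 at least 2-fold lower (5.07%). Of the Ly6 family of Lypd2, 5 of 12 genes were measured and all 5 had ratios above 0. Their median was 1.07, beside -0.01 over all genes measured. Among relatives with too few UMIs, Ly6h had 6 control and 0 mutant UMIs, Lynx1 4 and 1, Lypd3 1 and 0, and Slurp1 0 and 2. Lypd6b had 10 control and 32 mutant UMIs (1.88, from 1.13 to 3.38), Lypd6 41 and 71 (1.24, from 0.73 to 1.89), and Lypd1 16 and 26 (1.07, from 0.26 to 2.21). Of the other LIM-only genes and the LDB genes, which encode binding partners of LIM-only proteins, 4 of 5 were measured. Ldb2 had 22 and 48 UMIs, 6.83 and 21.2 CPM, and Lmo4 169 and 240 (log2 ratio 1.00, from 0.73 to 1.31), while Ldb1, the common partner, had 161 and 132 (0.22, from -0.12 to 0.56). Of the KCNE subunits and KCNQ channels, Kcne1l had 55 and 101 UMIs (1.34, from 0.90 to 1.89) and Kcnq1 had 0 UMIs in either library.

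In the families of Pde1a and Phactr3, the relatives past 2-fold were lower in the mutant. Among cyclic nucleotide phosphodiesterases, Pde1c had 298 control and 68 mutant UMIs, 92.5 and 30.1 CPM (-1.59, from -2.02 to -1.24), while Pde1a had 26.1 and 120 CPM. Pde3a had 57 and 14 UMIs (-1.38, from -2.47 to -0.65). Of the Phactr family and the catalytic subunits of protein phosphatase 1, all 6 genes were measured. Phactr1 had 124 and 31 UMIs (-1.43, from -2.11 to -0.91), and the other 5 lay between -0.55 and 0.30.

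In the lysophosphatidic acid list (7 of 11 measured), Plpp3, a phosphatase that degrades the lipid, had 87 and 26 UMIs (-1.16, from -1.92 to -0.59), and the receptor gene Lpar1 had 185 and 182 (0.48, from 0.18 to 0.79). In the natriuretic peptide list 4 of 11 genes were measured, none past 2-fold, with a median of 0.46. Among GoLoco proteins and inhibitory G alpha subunits, 6 of 8 were measured and none was past 2-fold, from -0.94 for Gnao1 to 0.58 for Gpsm2.

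The genes most like the set over 14 classes and 2 libraries (28 points, log2 of CPM plus 1, a description with no test) are given by name. Ins2 was closest to the mean profile of the 8, at a Pearson r of 0.89, and itself had 111 control and 290 mutant UMIs (log2 ratio 1.87, from 1.58 to 2.22). It was followed by Eprn (0.72), Klk4 (0.45), Bco1 (-0.43) and Pld5 (0.88), given here by their log2 ratios in RPE-like cells. Of the closest gene to each member, Perp was nearest to Lypd2 (r 0.94), with 73 and 172 UMIs in RPE-like cells (1.70, from 1.34 to 2.16), and Ins2 nearest to Kcne2 (r 0.94). The genes closest to the other members did not rise alike. Their log2 ratios were -0.29 for Bmp7 (nearest to Enpp2), -0.37 for Rnf152 (Npr3) and -0.44 for Mme (Pde1a). Ratios were 0.30 for Lrtm2 (Pcp2), 0.24 for 1190005I06Rik (Lmo1) and -0.03 for Car14 (Phactr3).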

How the data were processed

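Single-cell transcripts were counted by the authors from 10x 3′ libraries with Cell Ranger against GRCm38 (version 7.1.0 per the labels, 3.1.0 per the file headers) and clustered by them in Seurat 4.1.1. The deposited values are UMI counts that had not been normalized. Barcodes with at least 200 genes and at most 15% mitochondrial UMIs were kept (14131 control, 12027 mutant). The study's limit of 2000 UMIs would leave 2696 and 810 of them and served as an alternative. Scrublet scores (scanpy 1.11.5), at 0.8% doublets per 1000 cells, removed 11.9% and 10.2%. The libraries shared 59 barcodes. Cells were integrated and clustered in Seurat 5.3.0 with 2000 variable genes, 30 components and resolution 1, leaving out 107 names (the 8 genes and listed relatives among them), and classes were named from marker lists, so they can differ from the study's. RPE-like cells were sub-clustered at resolution 0.5.

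UMIs were summed per class and library. Intervals of log2 ratios are exact and conditional, without the 1 CPM added to the ratio, levels carry Poisson and shares Clopper-Pearson intervals, and a count of 0 allows 3 counts. No p-value is given, since there was 1 library per genotype. UMIs are counted at transcript ends, so levels do not scale with gene length. Besides the members, the text names relatives past 2-fold (a few others were chosen after their values were seen), leading genes with at least 100 UMIs, and closest profiles. Positions came from GENCODE M21. The 8 genes and the lists were chosen with earlier results of these data known. Some genes are not reported here.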

Additional observations from a re-analysis of the deposited data

Results flagged for a closer look

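A group of 4 results ran against the direction of the RPE, where all 8 genes were higher in the mutant. The difference between the classes was not tested, since each genotype had 1 library. Lmo1 had a log2 ratio of -0.32 in photoreceptor-like cells and of -0.40 in amacrine-like cells. Photoreceptor-like cells were its highest class in the control, with an interval that overlapped that of RPE-like cells. Npr3 had a log2 ratio of -0.97 in endothelial-like cells, with 22 UMIs in the mutant, in a class whose cell mix differed between the libraries. Lypd2 had a log2 ratio of -0.97 in surface epithelium-like cells (405 UMIs in 125 control cells and 159 UMIs in 70 mutant cells), a class that joined 1 cluster of 92 and 39 cells with 1 of 33 and 31. In RPE-like cells the ratios of these genes were 2.26 for Lmo1, 2.60 for Npr3 and 2.92 for Lypd2.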

How the results depend on the processing

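Each ratio of the 8 genes in RPE-like cells was recomputed under 16 other settings, which gave 127 ratios. The settings reuse the counts on which the genes were chosen, so the tallies are a description and no independent check. All 127 stayed above 0, 126 stayed at least 2-fold, and 122 had an interval above 0, while 20 moved by more than the interval of the main value. Those with an interval that included 0 were Kcne2 after thinning to 1000 UMIs (1.11, from 3 and 3 UMIs) and, in cells of at most 2000 UMIs, Enpp2, Kcne2 (3.14), Pde1a (1.05) and Phactr3 (2.86). Pde1a moved furthest upward, from 2.16 to 3.63 after thinning to 1000 UMIs. Lypd2 gave no ratio below 2000 UMIs per cell, where it had no UMI in either library. The ratio under 2-fold was that of Enpp2 at the same limit, 0.97, from 8 and 3 UMIs. The median of the 8 ratios, 2.43, was 2.99 at a mitochondrial limit of 5% (269 control and 87 mutant cells), and the cause was not tested. The count of genes past 2-fold was 8 under all settings run for it, other than the limit of 2000 UMIs, where it was 6. The share of mutant RPE-like cells with at least 3 of the genes, 70.2% at 5000 UMIs per cell, was 7.19% after thinning to 1000 UMIs, where fewer UMIs are drawn per cell, and 59.5% in cells taken by a pigment gate, for which the cause was not tested. Of 112 control levels by class, 103 stayed within their intervals with called doublets kept. Free RNA subtracted as a share of the neural retina's UMIs moved Pcp2 to 3.36 and Lmo1 to 2.83. No paired analysis was possible because there was 1 library per genotype. Depth limits the shallow cells most: below 2000 UMIs per cell no gene but Lmo1 had more than 8 UMIs in either library.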
